A study of Mus musculus with 9 samples.

Results

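Homeobox genes encode transcription factors that bind DNA through a homeodomain. The genes described here are the homeobox genes outside the Hox clusters that belong to the Msx, Dlx, Alx, Pitx, Meox, Meis, Pbx, Irx, Lhx, Prrx, Barx, Emx, engrailed (En) and Six-family groups. Their rows were found by gene symbol, and 52 genes were found among 24946 rows with a symbol (84809 rows in all). RNA was sequenced from 9 samples, 3 of each of 3 fractions of newborn mouse dermal cells. A cell sorter had divided these by their surface CD49f, which is integrin α6 and the product of Itga6, into a negative gate (CD49f-neg), a low gate (CD49f-low) and a high gate (CD49f-high). All groups were primary cells taken directly from mice of the strain Krt14 cre;Rosa26-mTmG, so every gate carried both alleles, with no strain control and no treatment. The keratin 14 promoter that drives this Cre is active in keratinocytes, and the Rosa26-mTmG reporter switches its fluorescent protein where Cre has acted. The labels call all 3 fractions mesenchymal cells and do not say whether the replicates of a gate came from separate animals, so the p-values below measure only the spread between these samples.

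Several of these families are known from the patterning of limbs, face and skin, where homeobox factors mark the position and lineage of mesenchymal cells. Meis and Pbx proteins are TALE factors, which bind DNA together with Hox proteins, and Irx proteins are TALE factors encoded in a pair of gene clusters. Alx, Pitx and Prrx proteins have a paired-like homeodomain and act in craniofacial and limb mesenchyme. Msx proteins are repressors that respond to BMP signals, Meox proteins act in somites and vessels, and engrailed 1 marks the dermis of the trunk.

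Close paralogues of one family carry nearly the same DNA-binding part. The homeoboxes of the Prrx pair are shown because 1 of these abundant paralogues was called and the other was not. They were read from the GENCODE M21 coding sequences of GRCm38, 5′ to 3′, 180 bases each, and capitals mark the bases that differ within the pair.
Prrx1: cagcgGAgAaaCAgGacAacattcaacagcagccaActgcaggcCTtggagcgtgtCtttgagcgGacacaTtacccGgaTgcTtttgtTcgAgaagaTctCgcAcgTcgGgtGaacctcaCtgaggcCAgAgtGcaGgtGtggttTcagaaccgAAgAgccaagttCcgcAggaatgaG
Prrx2: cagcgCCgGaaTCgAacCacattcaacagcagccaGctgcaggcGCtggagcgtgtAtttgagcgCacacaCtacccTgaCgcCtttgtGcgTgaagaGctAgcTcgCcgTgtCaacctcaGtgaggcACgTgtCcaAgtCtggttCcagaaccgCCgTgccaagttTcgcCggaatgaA
The Prrx homeoboxes differed at 38 bases (78.9% identical), and 58 of the 60 encoded residues were identical.

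The deposited unit was FPKM, which scales fragments to transcript length and library size. The spacing of the low values put the depth at an estimated 23688744 to 27248542 fragments per library, so 1 FPKM over 1 kilobase stood for 23.7 to 27.2 fragments. Itga6 stood at 0.710, 0.433 and 0.283 FPKM in CD49f-neg, at 6.05, 4.38 and 6.09 in CD49f-low and at 15.9, 19.6 and 24.1 in CD49f-high, in replicates 1 to 3 of each gate. The fibroblast marker list (6 genes, such as Col1a1 and Pdgfra) summed to 13516 to 16513 FPKM in CD49f-neg, 5403 to 6615 in CD49f-low and 3920 to 5920 in CD49f-high, so fibroblast markers were abundant in every gate. Markers of other cells moved with the gates. The melanocyte list (7 of 7 genes higher in CD49f-low than in CD49f-neg, of which 3 would not reach 1 FPKM in 3 libraries without CD49f-low) summed to 2.58 to 4.03 FPKM in CD49f-neg, 418 to 512 in CD49f-low and 8.82 to 17.3 in CD49f-high. The pericyte list (6 of 6 genes higher in CD49f-high against CD49f-neg) summed to 36.9 to 49.7, 47.3 to 87.7 and 512 to 884 FPKM in the same order. The immune list summed to 1.49 to 3.59 FPKM over all libraries, most of it Cd68 at 1.33 to 3.25. The other 4 immune genes stayed at or under 0.360 FPKM, with Cd52 listed at 0 in CD49f-neg. In bulk samples such as these, fewer cells of a type and less RNA per cell cannot be told apart.

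**Figure D1:**
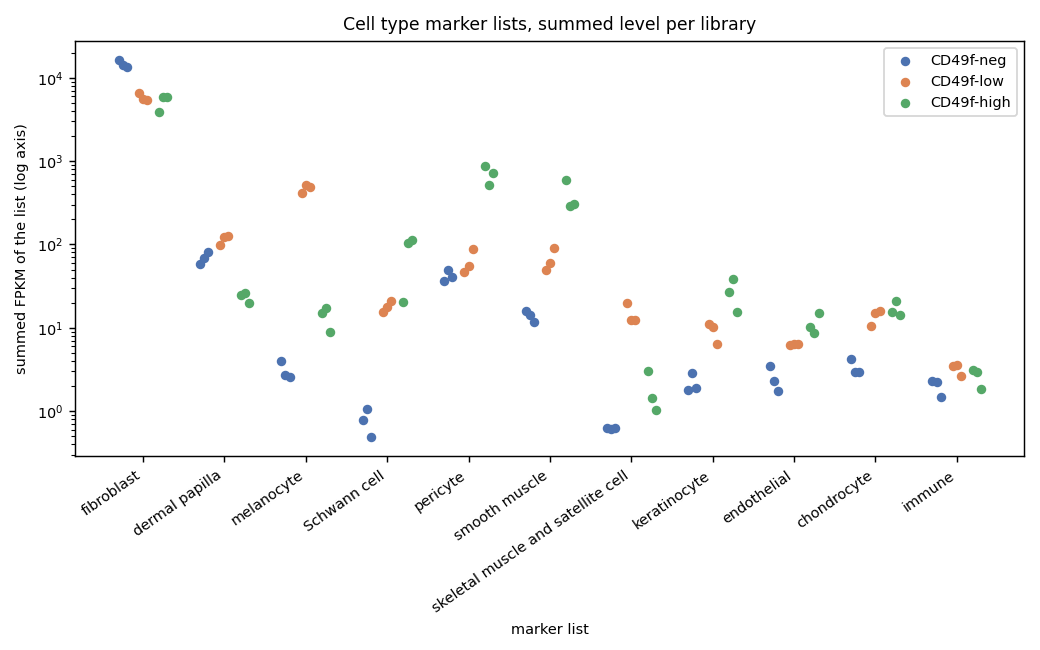
Summed FPKM of each cell type marker list (log axis) in each of the 9 libraries, coloured by gate, 3 points per gate. The fibroblast list is the most abundant in every library, the melanocyte list is highest in CD49f-low (418 to 512 FPKM) and the pericyte list is highest in CD49f-high (512 to 884 FPKM).

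Homeobox genes peaked in each of the gates. Meox2, Msx1 and Barx2 had their highest means in CD49f-high, and Alx1, Alx4 and Msx2 in CD49f-low. Meis1, Irx1, Irx2, Irx5, Prrx2 and Emx2 were lowest in CD49f-high, and En1 was highest in CD49f-neg. Of the 52 homeobox genes, 24 reached 1 FPKM in 3 or more libraries and were tested, and 28 did not. Among those tested, Alx1 and Msx2 passed the filter through CD49f-low alone and Barx2 through CD49f-high alone. The filter thus fixed the highest gate of these 3, and their calls are no independent support. Msx1 would not have passed without CD49f-high. In limma's test with Benjamini-Hochberg adjustment over all 20523 rows tested, 20 of the 24 were called at an adjusted p under 0.05 in at least 1 of the 3 contrasts, where 32.5% of all rows were. The F test over the 3 gates called 19 of them, where it called 28.5% of all rows. The members that reached the filter are those with more reads, so these counts describe them and not all 52 genes. Summed over the 52 genes, homeobox transcripts stood at 139 to 152 FPKM in CD49f-neg, 155 to 190 in CD49f-low and 118 to 129 in CD49f-high.

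The direction of the calls differed between the contrasts. From CD49f-neg to CD49f-high, 12 homeobox genes were lower (8.27% of all rows were) and 4 were higher (13.9% of all rows). Between CD49f-low and CD49f-high, 13 were lower in CD49f-high (10.5% of all rows) and 2 were higher (5.93%). From CD49f-neg to CD49f-low, 6 were higher (12.8% of all rows) and 2 were lower (2.62%). These counts include genes that would not have been tested without the gate where they were high. They are Alx1 and Msx2 for CD49f-low and Msx1 and Barx2 for CD49f-high, and their calls are no independent support for a direction. CD49f-high had the lowest gate mean of 14 of the 24 tested genes, CD49f-neg the highest mean of 11, CD49f-low the highest of 7 and CD49f-high the highest of 6. The median log2 fold change of the tested members was -0.02 from CD49f-neg to CD49f-low (0.21 over all rows), -0.44 from CD49f-neg to CD49f-high (0.07 over all rows) and -0.64 from CD49f-low to CD49f-high (-0.15 over all rows). All fold changes were computed on log2(FPKM + 1), so those of genes at low FPKM are understated. The contrasts share libraries, and each is given by its own values.

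The shift of all rows between CD49f-neg and CD49f-low depended on the scaling. It was 0.21 log2 units as deposited, 0.04 with median-of-ratios scaling and -0.01 with quantile normalization. For the homeobox genes of that contrast, median-of-ratios scaling gave 6 higher and 3 lower (5.95% and 4.66% of all rows), and quantile normalization gave 5 higher and 4 lower (5.07% and 4.89%). From CD49f-neg to CD49f-high both scalings gave 3 higher and 12 lower, where all rows had 12.5% higher and 10.4% lower with median-of-ratios scaling and 10.7% and 11.3% with quantile normalization. From CD49f-low to CD49f-high, median-of-ratios scaling gave 3 higher and 12 lower (7.59% and 7.02% of all rows) and quantile normalization 4 higher and 12 lower (7.68% and 6.97%).

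The replicate number as a block gave 8 higher and 4 lower from CD49f-neg to CD49f-low (24.0% and 4.34% of all rows), 5 higher and 11 lower from CD49f-neg to CD49f-high (19.7% and 11.6%) and 2 higher and 13 lower from CD49f-low to CD49f-high (8.07% and 17.8%), with 20 by the F test (43.8%). The count of 2 genes lower in CD49f-low fell to 0 in limma's test without CD49f-low replicate 3, where 3 were lower at an unadjusted p under 0.05, and to 1 without CD49f-low replicate 1, CD49f-low replicate 2, CD49f-neg replicate 2 or CD49f-neg replicate 3. The count of 4 genes raised in CD49f-high over CD49f-neg became 2 without any 1 of the 3 CD49f-high libraries and without the 3 libraries numbered 1.

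**Figure D2:**
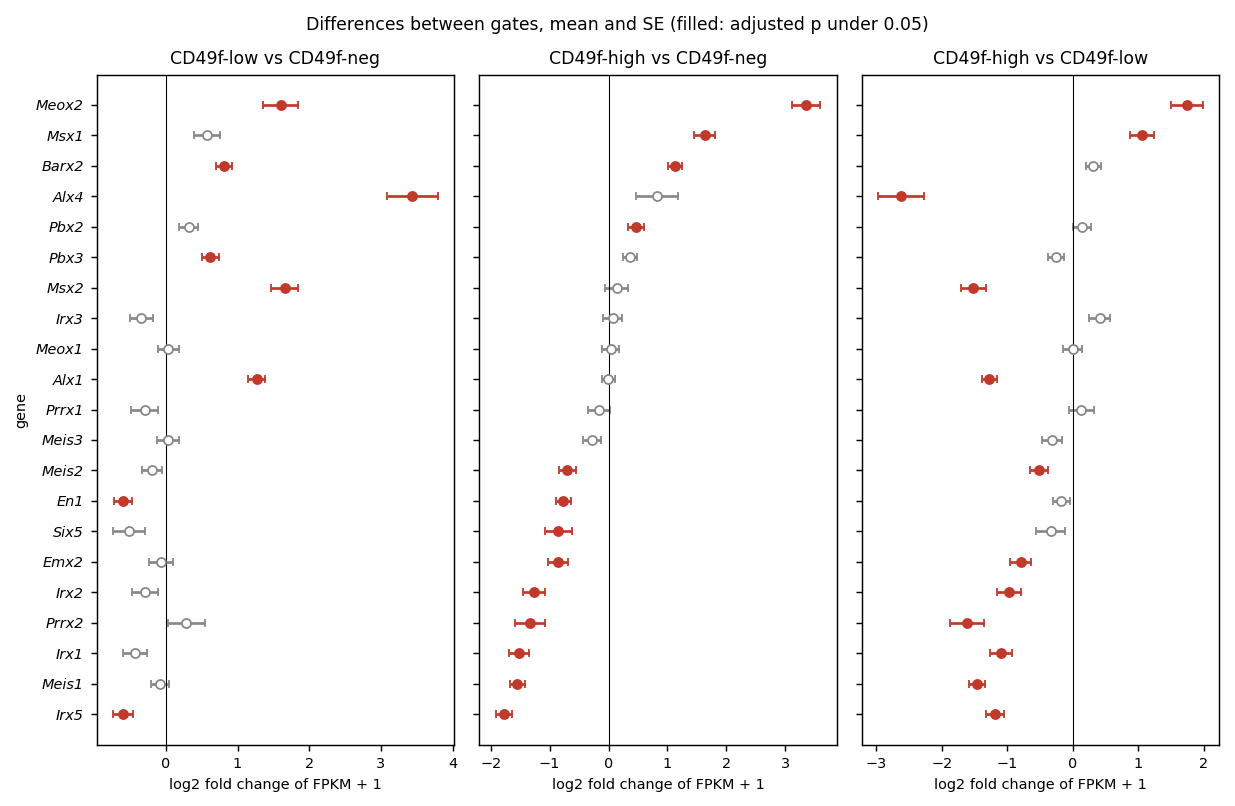
Log2 fold change of FPKM + 1 with its SE for 21 of the 24 tested homeobox genes in the 3 contrasts of the gates, filled where the adjusted p was under 0.05. Genes are ordered by the CD49f-high against CD49f-neg contrast, in which 4 of the filled points lie above 0 and 9 below it.

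Among the TALE factors, Meis1 and Meis2 were lowest in CD49f-high, while Pbx3 was lowest in CD49f-neg. Meis1, a partner of Hox proteins in DNA binding (chromosome 11, 18879817 to 19018985, GRCm38 as for all coordinates here), stood at 5.80, 6.77 and 6.79 FPKM in CD49f-neg, at 5.86, 5.47 and 6.80 in CD49f-low and at 1.69, 1.71 and 1.26 in CD49f-high, in the order of replicates 1 to 3. Its CD49f-high libraries all lay below the other 6, which overlapped each other. Meis1 fell by 1.55 (SE 0.12, adjusted p = 2.71e-05) log2 units from CD49f-neg to CD49f-high and by 1.46 (SE 0.12, adjusted p = 7.92e-05) from CD49f-low to CD49f-high in limma's test, and had the smallest adjusted p of the F test among the homeobox genes (3.36e-05). The low and negative gates differed by -0.08 (adjusted p = 0.662). Its paralogue Meis2 stood at 3.38, 3.98 and 4.29 FPKM in CD49f-neg, at 3.51, 2.90 and 3.45 in CD49f-low and at 2.54, 1.73 and 1.80 in CD49f-high, with the CD49f-high libraries again below the rest. Meis2 fell by 0.70 (SE 0.14, adjusted p = 0.00556) from CD49f-neg to CD49f-high and by 0.51 (SE 0.14, adjusted p = 0.0331) from CD49f-low to CD49f-high. Meis3 did not pass in any contrast, with means of 3.75 ± 0.491, 3.91 ± 0.885 and 2.90 ± 0.266 FPKM over the negative, low and high gates (SD, n = 3 per gate, as for all means here).

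The call for Meis2 between CD49f-low and CD49f-high was lost under several settings. Its adjusted p was 0.106 and 0.115 when CD49f-high replicate 2 or 3 was left out, 0.106, 0.0508 and 0.118 when CD49f-low replicate 1, 2 or 3 was, and 0.0515 without CD49f-neg replicate 2. It was 0.0934 with median-of-ratios scaling, 0.0982 with quantile normalization, 0.075 with no filter and 0.057 in a fit on the 6 libraries compared. The rows of Meis1, Meis2 and Pbx3 each also hold a long noncoding RNA, that of Prrx1 holds 2, and an antisense gene overlaps Meis1. The labels give no strand, so those transcripts cannot be separated.

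Pbx proteins are the TALE partners of both Hox and Meis proteins. Pbx3 and the row of Pbx2 were lowest in CD49f-neg. Pbx3 stood at 0.700, 0.773 and 0.740 FPKM in CD49f-neg, at 1.43, 1.63 and 2.00 in CD49f-low and at 1.29, 1.37 and 1.09 in CD49f-high, and its CD49f-neg values were the lowest with no overlap. It rose by 0.62 (SE 0.12, adjusted p = 0.00837) log2 units from CD49f-neg to CD49f-low, a call lost with quantile normalization (adjusted p = 0.101). The difference between CD49f-high and CD49f-neg was 0.37 (adjusted p = 0.054) and passed with the replicate block (adjusted p = 0.0413), with a pseudocount of 0.1 (0.0373) and with no trend (0.0447). The row of Pbx2 also covers Gpsm3, so which gene it measured is uncertain. That row stood at 3.89, 5.32 and 4.65 FPKM in CD49f-neg, at 5.17, 5.94 and 6.91 in CD49f-low and at 6.22, 6.76 and 7.12 in CD49f-high, and CD49f-high exceeded CD49f-neg by 0.46 (SE 0.13, adjusted p = 0.0348). Its call was lost without CD49f-high replicate 1 (adjusted p = 0.0502), 2 (0.0881) or 3 (0.102), without CD49f-low replicate 2 (0.0543) and without CD49f-neg replicate 1 (0.0912) or 3 (0.0909). It was lost too without the 3 libraries numbered 1 (0.0621), with no filter (0.0913), in a fit on 6 libraries (0.0572), with median-of-ratios scaling (0.0538) and with quantile normalization (0.108), and the row differed between CD49f-low and CD49f-neg only with the block (adjusted p = 0.0462). Pbx4 was under the filter, at means of 0.110 ± 0.0235, 0.206 ± 0.0563 and 0.266 ± 0.0412 FPKM over the negative, low and high gates.

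The Iroquois genes are TALE factors that lie in 2 clusters, Irx1, Irx2 and Irx4 on chromosome 13 and Irx3, Irx5 and Irx6 on chromosome 8. Of the 4 tested Irx genes, 3 were lowest in CD49f-high. Irx5 (chromosome 8, 92357796 to 92361456) stood at 12.3, 13.0 and 11.1 FPKM in CD49f-neg, at 8.89, 7.12 and 7.09 in CD49f-low and at 3.05, 3.25 and 2.22 in CD49f-high. None of its gates overlapped. Irx5 fell by 1.78 (SE 0.14, adjusted p = 2.33e-05) log2 units from CD49f-neg to CD49f-high and by 1.18 (SE 0.14, adjusted p = 0.00043) from CD49f-low to CD49f-high. It also fell from CD49f-neg to CD49f-low by 0.59 (SE 0.14, adjusted p = 0.0211), a call lost without CD49f-low replicate 2 (adjusted p = 0.0871), CD49f-low replicate 3 (0.0891) or CD49f-neg replicate 2 (0.0698), and with no filter (0.0606).

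On the other cluster, Irx1 (chromosome 13, 71957921 to 71963723) stood at 13.1, 10.0 and 11.6 FPKM in CD49f-neg, at 10.6, 7.28 and 7.32 in CD49f-low and at 4.08, 3.19 and 2.87 in CD49f-high. Its CD49f-high values lay below all others, and those of CD49f-neg and CD49f-low overlapped. Irx1 fell by 1.53 (SE 0.17, adjusted p = 0.000195) log2 units from CD49f-neg to CD49f-high and by 1.09 (SE 0.17, adjusted p = 0.00208) from CD49f-low to CD49f-high. The CD49f-low to CD49f-neg difference was -0.43 (adjusted p = 0.112), and passed with the replicate block (adjusted p = 0.0177), with median-of-ratios scaling (0.0461) and without the 3 libraries numbered 1 (0.0411). Its neighbour Irx2 (chromosome 13, 72628820 to 72634198) stood at 14.8, 12.3 and 9.17 FPKM in CD49f-neg, at 11.5, 8.41 and 8.88 in CD49f-low and at 5.19, 4.07 and 3.88 in CD49f-high, a like order with no overlap of CD49f-high and the rest. Irx2 fell by 1.27 (SE 0.18, adjusted p = 0.000907) from CD49f-neg to CD49f-high and by 0.97 (SE 0.18, adjusted p = 0.00568) from CD49f-low to CD49f-high.

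Irx3, which shares a cluster with Irx5, passed no test as deposited, at 5.45 ± 1.23, 4.04 ± 0.269 and 5.74 ± 0.915 FPKM over the negative, low and high gates. Its CD49f-high to CD49f-low difference of 0.41 (adjusted p = 0.11) passed with median-of-ratios scaling (adjusted p = 0.0482) and quantile normalization (0.0493), and its CD49f-low to CD49f-neg difference of -0.34 (adjusted p = 0.164) passed with quantile normalization (0.0426). An antisense gene overlaps Irx3, and a long noncoding RNA shares the row of Irx1. Irx4 and Irx6, one from each cluster, were under the filter and are described with the rare genes.

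Among the paired-like genes, Alx4 and Alx1 peaked in CD49f-low. Alx4, a factor of limb and craniofacial mesenchyme (chromosome 2, 93642384 to 93681339), stood at 1.17, 2.32 and 2.64 FPKM in CD49f-neg, at 21.7, 34.8 and 40.3 in CD49f-low and at 3.55, 7.85 and 2.61 in CD49f-high. The lowest CD49f-low value was above every value of the other gates. Alx4 rose by 3.44 (SE 0.35, adjusted p = 0.000215) log2 units from CD49f-neg to CD49f-low and fell by 2.62 (SE 0.35, adjusted p = 0.000904) from CD49f-low to CD49f-high, and the CD49f-high to CD49f-neg difference was 0.82 (adjusted p = 0.13). With a mean of 32.3 ± 9.54 FPKM it was the most abundant homeobox gene of CD49f-low.

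Alx1, a regulator of frontonasal mesenchyme (chromosome 10, 103007846 to 103029054), stood at 0.0353, 0 and 0 FPKM in CD49f-neg, at 1.64, 1.32 and 1.35 in CD49f-low and at 0, 0.0135 and 0.0104 in CD49f-high. It was detected in all CD49f-low libraries and was listed at or near 0 in the others. The fitted difference was 1.27 log2 units both between CD49f-low and CD49f-neg (adjusted p = 9.72e-05) and between CD49f-low and CD49f-high (adjusted p = 9.33e-05), a size that the pseudocount limits. Alx1 was tested only through its CD49f-low libraries, so these p-values are no independent support.

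Markers of several cell types moved with the genes that peaked in CD49f-low. The melanocyte list was highest there, as given above. Of the 6 dermal papilla genes, 5 were higher in CD49f-low than in CD49f-neg, 5 were higher and 1 was lower in CD49f-high against CD49f-neg, and 6 were lower in CD49f-high than in CD49f-low. The gene lower in that contrast with CD49f-neg was Wif1, an inhibitor of Wnt signals, with means of 66.3, 54.8 and 9.57 FPKM over the negative, low and high gates. The other 5 (Corin, Sox2, Alpl, Prdm1 and Notum) summed to 3.20 to 3.39 FPKM in CD49f-neg, 50.5 to 68.2 in CD49f-low and 11.0 to 17.0 in CD49f-high, and 3 of them passed the filter through CD49f-low. The list of skeletal muscle and satellite cells summed to 0.613 to 0.632, 12.4 or more and 1.04 to 3.03 FPKM in the same order. All 4 of its tested genes were called higher in CD49f-low than in CD49f-neg. None would have passed the filter without the CD49f-low libraries, so the filter favoured such calls and this count is no independent support. Their part in the differences of Alx1, Alx4 and Msx2 was not tested.

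Of the Prrx paralogues, whose homeoboxes are printed above, Prrx2 was called and Prrx1 was not. Prrx1, a marker of limb and dermal mesenchyme (chromosome 1, 163245119 to 163313710), was the most abundant homeobox gene of CD49f-neg and stood at 20.2, 27.0 and 29.6 FPKM in CD49f-neg, at 15.4, 22.7 and 24.3 in CD49f-low and at 24.9, 21.0 and 21.5 in CD49f-high. The gates overlapped, and no contrast of Prrx1 passed. CD49f-low differed from CD49f-neg by -0.29 (adjusted p = 0.306), CD49f-high from CD49f-neg by -0.17 (adjusted p = 0.603) and CD49f-high from CD49f-low by 0.13 (adjusted p = 0.679). Without the 3 libraries numbered 1, the difference of CD49f-high from CD49f-neg passed (adjusted p = 0.0472). Prrx2 (chromosome 2, 30834972 to 30881251) stood at 4.88, 7.98 and 8.77 FPKM in CD49f-neg, at 6.87, 9.69 and 10.1 in CD49f-low and at 1.64, 3.49 and 1.74 in CD49f-high. Its CD49f-high libraries were the lowest, with no overlap. Prrx2 fell by 1.33 (SE 0.26, adjusted p = 0.00482) log2 units from CD49f-neg to CD49f-high and by 1.62 (SE 0.26, adjusted p = 0.0024) from CD49f-low to CD49f-high. Whether the paralogues differ from each other in response was not tested.

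The genes lower in CD49f-high were set beside the fibroblast markers, of which 6 of 6 were lower in CD49f-high than in CD49f-neg. The fibroblast list was lower in CD49f-low too (5 of 6 members called). Between CD49f-low and CD49f-high, 2 of its 6 genes (Lum and Pdgfra) were called lower in CD49f-high. Col1a1, Col1a2, Col3a1 and Dcn were not called there, at -0.11, -0.16, -0.21 and 0.01 log2 units. Meis1, Meis2, Irx1, Irx2, Irx5, Prrx2 and Emx2 were called lower in that step, and En1 and Six5 were not. Of the homeobox genes lower in CD49f-high, Irx5 and En1 were also called lower in CD49f-low than in CD49f-neg, Irx1 and Six5 were with the replicate block, and Meis1, Meis2, Irx2, Prrx2 and Emx2 did not pass in either fit. The part of fibroblasts in these falls was not tested.

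**Figure D3:**
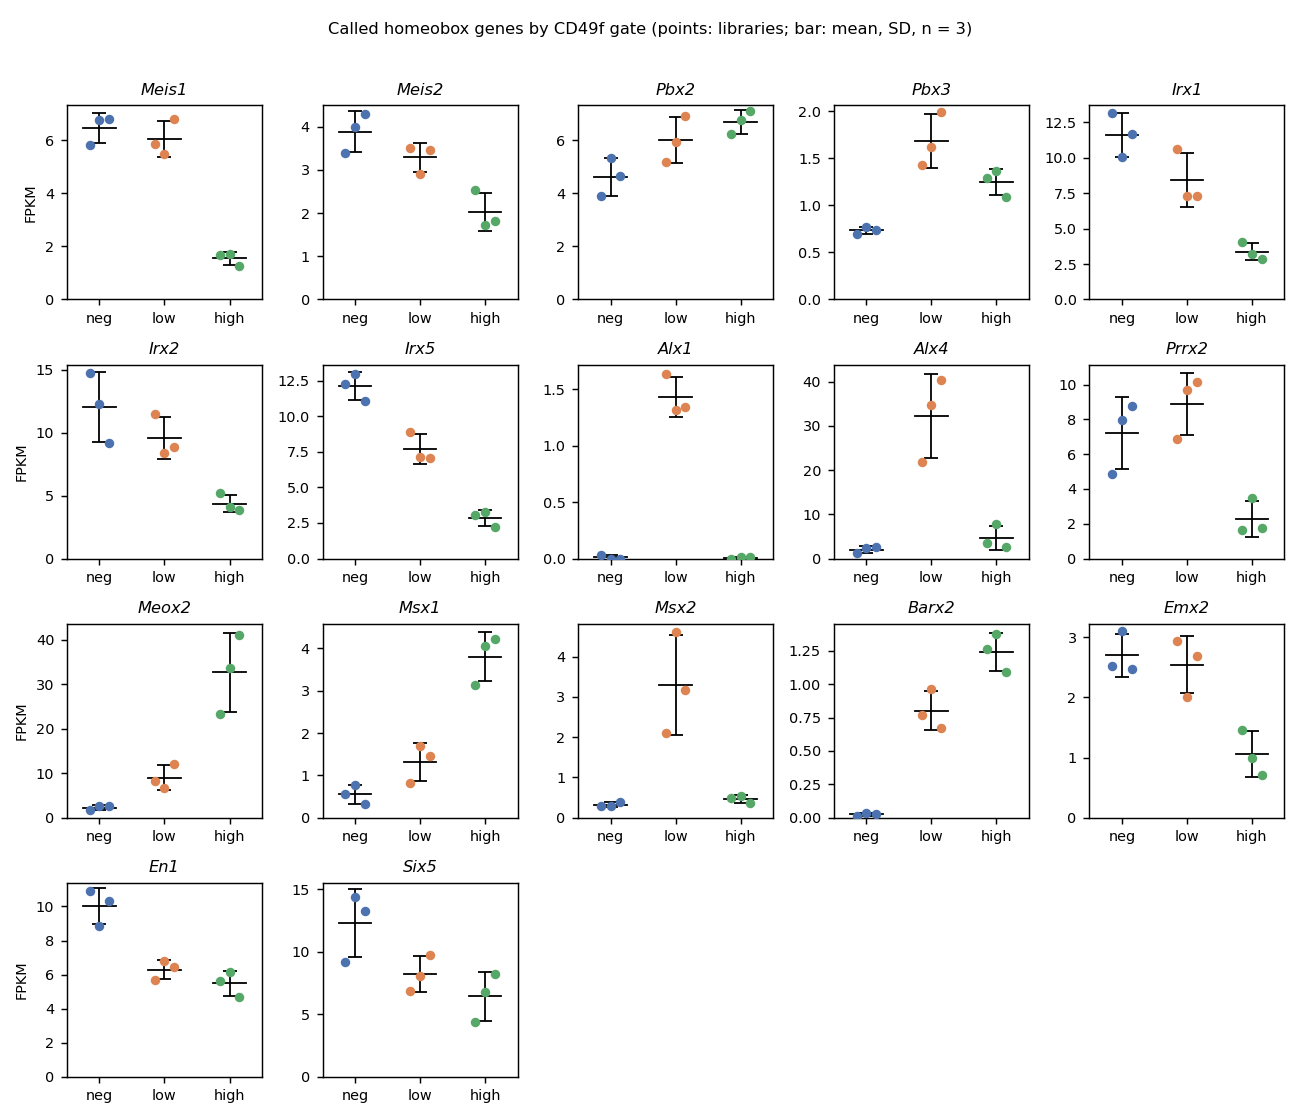
FPKM of 17 of the 20 homeobox genes called in at least 1 contrast, by CD49f gate; points are libraries and bars the mean and SD (n = 3). Meox2, Msx1 and Barx2 are highest in CD49f-high, Alx1, Alx4 and Msx2 are highest in CD49f-low, and Meis1, the 3 Irx genes, Prrx2 and Emx2 are lowest in CD49f-high.

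Meox2, a factor of somites, limb muscle and vessels (chromosome 12, 37108540 to 37179534), rose at each step of the gates. It stood at 1.62, 2.53 and 2.63 FPKM in CD49f-neg, at 8.33, 6.73 and 12.0 in CD49f-low and at 23.4, 33.7 and 41.1 in CD49f-high. No value of one gate overlapped with another gate. Meox2 rose by 1.60 (SE 0.24, adjusted p = 0.00236) log2 units from CD49f-neg to CD49f-low, by 1.75 (SE 0.24, adjusted p = 0.00116) from CD49f-low to CD49f-high and by 3.35 (SE 0.24, adjusted p = 1.64e-05) over the whole range. With 32.7 ± 8.87 FPKM it had the highest mean among the homeobox genes of CD49f-high, followed by Prrx1 at 22.5 ± 2.14. Its paralogue Meox1 stood near 1 FPKM in every gate, at 0.962 ± 0.166, 1.01 ± 0.176 and 1.02 ± 0.325 FPKM over the negative, low and high gates, and passed in no contrast.

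The Msx paralogues peaked in different gates. Msx1 (chromosome 5, 37820485 to 37824583) stood at 0.561, 0.772 and 0.323 FPKM in CD49f-neg, at 0.819, 1.69 and 1.45 in CD49f-low and at 3.14, 4.06 and 4.21 in CD49f-high. CD49f-high lay above both other gates, and CD49f-neg lay below CD49f-low. Msx1 rose by 1.63 (SE 0.18, adjusted p = 0.00019) log2 units from CD49f-neg to CD49f-high and by 1.06 (SE 0.18, adjusted p = 0.00349) from CD49f-low to CD49f-high. Without the CD49f-high libraries Msx1 would not have been tested. The step from CD49f-neg to CD49f-low was 0.57 (adjusted p = 0.0617), and passed with the replicate block (adjusted p = 0.0261), with a pseudocount of 0.1 (0.0471), without CD49f-low replicate 1 (0.0324) and without the 3 libraries numbered 1 (0.0392). Msx2 (chromosome 13, 53466884 to 53473074) stood at 0.300, 0.283 and 0.389 FPKM in CD49f-neg, at 2.11, 4.60 and 3.17 in CD49f-low and at 0.480, 0.544 and 0.355 in CD49f-high. It was above 2 FPKM in each CD49f-low library and below 0.6 in the others. Msx2 rose by 1.66 (SE 0.19, adjusted p = 0.000487) from CD49f-neg to CD49f-low and fell by 1.52 (SE 0.19, adjusted p = 0.000671) from CD49f-low to CD49f-high. It was tested only through its CD49f-low libraries, so these p-values are no independent support.

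Barx2, a factor of muscle and epithelial development (chromosome 9, 31846044 to 31913462), was near 0 in CD49f-neg. It stood at 0.0101, 0.0340 and 0.0279 FPKM in CD49f-neg, at 0.769, 0.962 and 0.672 in CD49f-low and at 1.26, 1.37 and 1.09 in CD49f-high, and the gates did not overlap. Barx2 rose by 0.81 (SE 0.12, adjusted p = 0.00179) log2 units from CD49f-neg to CD49f-low and by 1.13 (SE 0.12, adjusted p = 0.000129) from CD49f-neg to CD49f-high. Barx2 was tested only through its CD49f-high libraries, so these p-values are no independent support. The step from CD49f-low to CD49f-high was 0.32 (adjusted p = 0.0999), and passed with quantile normalization (adjusted p = 0.0145).

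By gate, several lists of other cells' markers were also highest in CD49f-high. Besides the pericyte list, the smooth muscle list (5 genes, such as Acta2 and Myh11) summed to 11.6 to 15.9 FPKM in CD49f-neg, 49.9 to 89.6 in CD49f-low and 287 to 587 in CD49f-high. Within CD49f-high, replicates 1 to 3 stood at 587, 287 and 306 FPKM for smooth muscle and at 884, 512 and 724 for pericytes. Of the homeobox genes, Meox2 and Msx1 were lowest in replicate 1 of that gate, and Barx2 in replicate 3. The Schwann cell list summed to 0.490 to 1.05, 15.6 to 20.9 and 20.3 to 113 FPKM, with CD49f-high replicate 1 at 20.3 and the others at 103 and 113. The keratinocyte list summed to 1.77 to 2.83, 6.34 to 11.1 and 15.4 to 38.2 FPKM. The endothelial list summed to 1.74 to 3.51, 6.14 to 6.42 and 8.54 to 15.1 FPKM, and 1 of its 3 tested genes was called higher from CD49f-neg to CD49f-high. That gene was Cdh5, the cadherin of vessel walls, with means of 0.0785, 0.508 and 5.30 FPKM, and it passed the filter through CD49f-high. Of the other tested genes, Kdr peaked in CD49f-low (means 0.690, 3.62 and 1.49 FPKM) and would not have passed the filter without that gate. Tek differed little (1.52, 1.64 and 1.79 FPKM) and was called in no contrast. The untested Tie1, Pecam1 and Emcn had their highest means in CD49f-high. The chondrocyte list summed to 2.95 to 4.17, 10.5 to 15.7 and 14.1 to 20.7 FPKM, most of it Acan and Sox9. Of its genes, 0 were called between CD49f-low and CD49f-high. The untested Col2a1 and Col9a1 went the other way and were lowest in CD49f-high. Their means were 0.176, 0.314 and 0.103 FPKM and 0.599, 0.683 and 0.299 FPKM. Matn1, also untested, was detected in CD49f-high alone, at a mean of 0.0886 FPKM. The part of these cells in the levels of Meox2, Msx1 and Barx2 was not tested.

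Engrailed 1, known from the ectoderm and dermis of the trunk (chromosome 1, 120602418 to 120607992), was highest in CD49f-neg. It stood at 10.9, 8.85 and 10.3 FPKM in CD49f-neg, at 5.67, 6.80 and 6.42 in CD49f-low and at 5.60, 6.14 and 4.70 in CD49f-high. The CD49f-neg values lay above all others, and CD49f-low overlapped with CD49f-high. En1 fell by 0.77 (SE 0.13, adjusted p = 0.00192) log2 units from CD49f-neg to CD49f-high and by 0.59 (SE 0.13, adjusted p = 0.0134) from CD49f-neg to CD49f-low. The call between CD49f-neg and CD49f-low was lost without CD49f-low replicate 1 (adjusted p = 0.0516), CD49f-low replicate 3 (0.0511) or CD49f-neg replicate 3 (0.0586), and without the 3 libraries numbered 1 (0.0829). En2 stayed at or under 0.143 FPKM in every library.

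Emx2, a factor of cortex, urogenital and limb girdle development, stood at 2.53, 3.11 and 2.47 FPKM in CD49f-neg, at 2.93, 2.01 and 2.69 in CD49f-low and at 1.47, 0.996 and 0.704 in CD49f-high. CD49f-high was the lowest gate with no overlap. Emx2 fell by 0.86 (SE 0.17, adjusted p = 0.00475) log2 units from CD49f-neg to CD49f-high and by 0.79 (SE 0.17, adjusted p = 0.0101) from CD49f-low to CD49f-high, and an antisense gene overlaps it. Six5, the single gene of its family that reached the filter, stood at 9.20, 14.3 and 13.3 FPKM in CD49f-neg, at 6.89, 8.07 and 9.71 in CD49f-low and at 4.34, 6.74 and 8.24 in CD49f-high, with every CD49f-high value below CD49f-neg and CD49f-low overlapping both. Six5 fell by 0.85 (SE 0.23, adjusted p = 0.0239) from CD49f-neg to CD49f-high. Its call was lost without CD49f-high replicate 1 (adjusted p = 0.0659), CD49f-high replicate 2 (0.0506), CD49f-neg replicate 2 (0.0894) or CD49f-neg replicate 3 (0.0861), and with no filter (0.0707). The CD49f-low to CD49f-neg difference of -0.51 (adjusted p = 0.148) passed with the replicate block (0.0167) and without the 3 libraries numbered 1 (0.0463).

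The 28 genes under the filter included all 6 Dlx genes, all 8 Lhx genes and all but Six5 of the Six-family genes. Of the 28, 10 stayed under 0.1 FPKM in every library, at 0.0596 or less. They were Msx3, Emx1, Dlx6, Six3, Six6, Lhx1, Lhx3, Lhx4, Lhx5 and Lhx9. Dlx4, Barx1 and Lhx6 peaked at 0.115, 0.163 and 0.225 FPKM. In a fit with no filter on all 84809 rows, 6 of the 28 passed the F test (7.48% of all rows did), and differences of such rare genes rest on few fragments.

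Rare genes of CD49f-high came from the Irx and Dlx families. Irx4 (chromosome 13, 73260479 to 73269608) stood at 0.0152, 0 and 0 FPKM in CD49f-neg, at 0.239, 0.0963 and 0.0953 in CD49f-low and at 0.785, 1.03 and 0.751 in CD49f-high. The gates did not overlap, and in the unfiltered fit CD49f-high exceeded CD49f-neg by 0.88 (adjusted p = 0.000971) log2 units and CD49f-low by 0.70 (adjusted p = 0.00511). It thus stood highest in the gate where Irx1 and Irx2, its neighbours on chromosome 13, were lowest. Irx6 stood at 0.336, 0.221 and 0.310 FPKM in CD49f-neg, at 0.0982, 0.123 and 0.0737 in CD49f-low and at 0, 0.0507 and 0.0232 in CD49f-high, and CD49f-high was below CD49f-neg by 0.33 (adjusted p = 0.0162), with an overlapping gene on the other strand. Of the 28, Irx4, Dlx2 and Dlx5 were called higher and Irx6 lower in this contrast (3.79% and 2.17% of all rows). Irx4 and Dlx5 were also called higher and Pitx3 lower in CD49f-high against CD49f-low (1.76% and 2.59% of all rows).

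Dlx genes, known from limb, jaw and epidermis, lie in pairs, with Dlx1 and Dlx2 on chromosome 2, Dlx3 and Dlx4 on chromosome 11 and Dlx5 and Dlx6 on chromosome 6. Dlx5 stood at 0, 0.00845 and 0 FPKM in CD49f-neg, at 0.0399, 0.0981 and 0.0176 in CD49f-low and at 0.350, 0.193 and 0.255 in CD49f-high, with CD49f-high above the rest. Its excess in CD49f-high was 0.33 (adjusted p = 0.0105) log2 units over CD49f-neg and 0.27 (adjusted p = 0.0385) over CD49f-low in the unfiltered fit. Dlx2 stood at 0.0870, 0.0134 and 0.0257 FPKM in CD49f-neg, at 0.320, 0.179 and 0.191 in CD49f-low and at 0.285, 0.885 and 1.15 in CD49f-high, and CD49f-high exceeded CD49f-neg by 0.73 (adjusted p = 0.0395). Dlx1 stood at 0.0567, 0.167 and 0.254 FPKM in CD49f-high and at 0.0613 or less elsewhere, with an antisense gene over its exons. For Dlx1 and Dlx2, CD49f-high replicate 1 was the lowest of its gate, as it was for the Schwann cell list; whether the patterns are related was not tested.

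Dlx3 peaked in CD49f-low instead, at 0.191, 0.301 and 0.176 FPKM in CD49f-neg, at 0.789, 0.670 and 0.633 in CD49f-low and at 0.433, 0.371 and 0.188 in CD49f-high, with no overlap between CD49f-low and the rest. It was higher in CD49f-low than in CD49f-neg by 0.47 (adjusted p = 0.0459) log2 units. Pitx3 showed the same order at 0.0716, 0.0627 and 0.0661 FPKM in CD49f-neg, at 1.01, 0.880 and 0.905 in CD49f-low and at 0.180, 0.112 and 0.103 in CD49f-high, and was higher in CD49f-low than in CD49f-neg by 0.85 (adjusted p = 0.000813) and lower in CD49f-high than in CD49f-low by 0.77 (adjusted p = 0.00132). Its exons overlap those of Elovl3 on the opposite strand, so Pitx3 is uncertain. Pitx1 stood at 0, 0.0936 and 0.0138 FPKM in CD49f-neg, at 0.283, 0.342 and 0.210 in CD49f-low and at 0.0993, 0.0429 and 0.0147 in CD49f-high and was higher in CD49f-low than in CD49f-neg by 0.30 (adjusted p = 0.0461), and it is uncertain too, as Gm47071 overlaps it on the opposite strand. These 3 were the genes of the 28 called higher in CD49f-low than in CD49f-neg (2.5% of all rows, with 0.687% lower).

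Six-family and Lhx genes under the filter stayed low in each gate. Six4 had means of 0.0931 ± 0.0599, 0.251 ± 0.0815 and 0.146 ± 0.0597 FPKM over the negative, low and high gates, and Six2 of 0.137 ± 0.0894, 0.224 ± 0.110 and 0.175 ± 0.0845 FPKM over the negative, low and high gates. Lhx2, a LIM homeobox factor of hair follicle progenitors, had means of 0.256 ± 0.0190, 0.575 ± 0.173 and 0.534 ± 0.161 FPKM over the negative, low and high gates, and Lhx8 of 0.184 ± 0.0253, 0.275 ± 0.0935 and 0.501 ± 0.118 FPKM over the negative, low and high gates. No Six-family or Lhx gene under the filter was called in a contrast of the unfiltered fit.

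**Figure D4:**
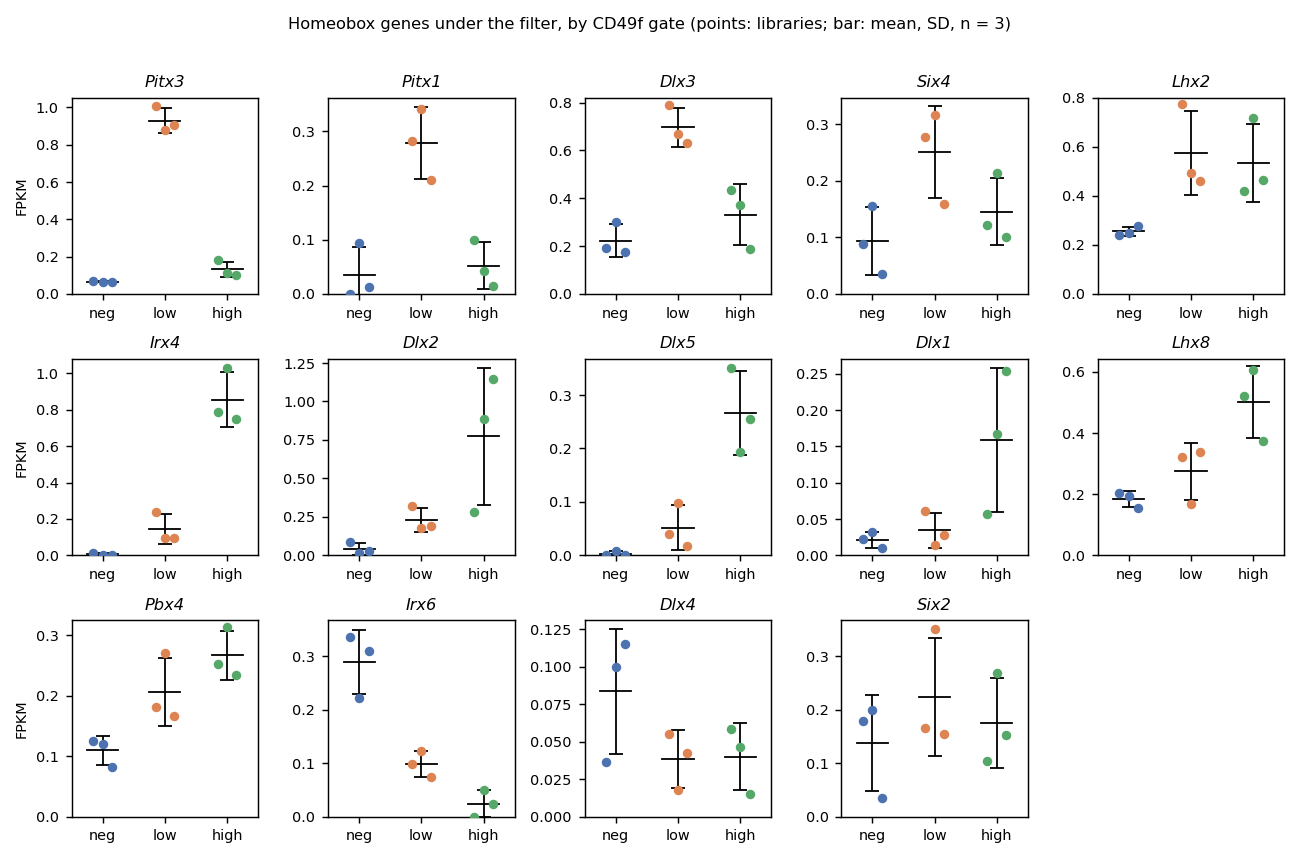
FPKM of 14 homeobox genes under the filter, by CD49f gate; points are libraries and bars the mean and SD (n = 3), with axes that start at 0. Pitx3, Pitx1 and Dlx3 are highest in CD49f-low, Irx4, Dlx2 and Dlx5 in CD49f-high and Irx6 in CD49f-neg.

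RefSeq promoter windows of build GRCm38.p6 were found for 33 of the 52 genes, 14 of them tested. The 250 bases before the start are printed for Meox2 and Msx1, tested genes that both rose toward CD49f-high, on the strand of the gene, 5′ to 3′, with motif matches in capitals.
Meox2, chr12:37108290-37108539, plus strand: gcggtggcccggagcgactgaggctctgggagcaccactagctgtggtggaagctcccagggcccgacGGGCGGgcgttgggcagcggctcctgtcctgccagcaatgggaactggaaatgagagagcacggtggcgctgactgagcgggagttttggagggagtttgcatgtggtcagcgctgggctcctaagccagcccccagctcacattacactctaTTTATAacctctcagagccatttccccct
Msx1, chr5:37824586-37824835, minus strand: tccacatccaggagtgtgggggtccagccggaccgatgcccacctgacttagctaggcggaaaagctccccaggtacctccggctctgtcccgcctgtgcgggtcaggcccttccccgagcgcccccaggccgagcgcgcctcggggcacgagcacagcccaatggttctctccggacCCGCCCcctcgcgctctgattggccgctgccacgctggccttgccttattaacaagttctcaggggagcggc
Of the Meox2 bases 62.0% were G or C, with 12 CG dinucleotides, and of the Msx1 bases 68.0%, with 20. Motifs were searched on both strands, and none of them holds another. Meox2 held TATAAA on the opposite strand and GGGCGG on its own strand, and Msx1 held GGGCGG on the opposite strand. The GC box GGGCGG was in 24 of 38 windows of the homeobox genes (63.2%) and in 32.7% of all 32851 windows of this length. The 38 windows came from 33 genes, so some genes count more than once, and the windows were not matched for G and C content. The homeodomain core TAATTA was in 5.26% of the homeobox windows and 4.84% of all. The MEIS and TGIF core TGACAG was in 18.4% and 15.9%. The TATA box TATAAA was in 10.5% and 12.4%. These matches describe letters in a window and no binding.

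Cofactors and homeobox genes of other families were taken from a list of 40 genes, of which 39 had a row and 22 were tested. Of these, 15 were called in at least 1 contrast, where 32.5% of all rows were. The list was chosen with earlier results of these data known, so its counts and medians beside those of all rows are no independent comparison. In limma's test 8 were higher and 0 lower from CD49f-neg to CD49f-low (12 and 0 at an unadjusted p under 0.05), where 12.8% of all rows were higher and 2.62% lower. From CD49f-neg to CD49f-high 12 were higher and 1 was lower (13.9% and 8.27% of all rows). From CD49f-low to CD49f-high 5 were higher and 3 lower (5.93% and 10.5% of all rows), and 5 and 6 with the replicate block (8.07% and 17.8%). Their median log2 fold change was 0.41, 0.54 and -0.10 in these contrasts, beside 0.21, 0.07 and -0.15 for all rows. With median-of-ratios scaling the first of these counts was 5 higher and with quantile normalization 4, with 0 lower in both (0 and 0 at an unadjusted p under 0.05). All rows then had 5.95% and 5.07% higher and 4.66% and 4.89% lower. Of the listed genes, Eya1 would not have passed the filter without CD49f-low, nor Pou3f1 without CD49f-high. Eya4 would not have passed without CD49f-neg or without CD49f-low.

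Eya proteins are coactivators of Six-family factors. Eya1 stood at 0.0878, 0.00980 and 0.0305 FPKM in CD49f-neg, at 2.28, 1.86 and 2.17 in CD49f-low and at 0.161, 0.0948 and 0.0890 in CD49f-high, and rose by 1.57 (SE 0.11, adjusted p = 3.18e-05) log2 units from CD49f-neg to CD49f-low and fell by 1.47 (SE 0.11, adjusted p = 5.63e-05) from CD49f-low to CD49f-high. It reached 1 FPKM in the CD49f-low libraries alone, so the filter fixed its highest gate and its calls are no independent support. Eya2 stood at 0.0134, 0.00646 and 0.0124 FPKM in CD49f-neg, at 2.29, 2.78 and 3.41 in CD49f-low and at 1.15, 2.07 and 1.95 in CD49f-high, and was higher than in CD49f-neg by 1.91 (SE 0.17, adjusted p = 8.49e-05) in CD49f-low and by 1.41 (SE 0.17, adjusted p = 0.000263) in CD49f-high. Both were near 0 in every CD49f-neg library. Eya4, at 1.19 ± 0.220, 1.10 ± 0.450 and 0.188 ± 0.0293 FPKM over the negative, low and high gates, was the one listed gene called lower from CD49f-neg to CD49f-high, by 0.87 (SE 0.17, adjusted p = 0.00485). It passed the filter through CD49f-neg and CD49f-low together, and no CD49f-high library reached 1 FPKM. As background, Eya1 and Eya2 also act in muscle precursors, whose marker list was highest in CD49f-low, and the part of those cells was not tested.

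Hopx, a homeodomain-only protein that does not bind DNA, stood at 0.872, 1.31 and 0.859 FPKM in CD49f-neg, at 1.65, 1.68 and 2.07 in CD49f-low and at 14.2, 8.69 and 11.6 in CD49f-high. It rose by 2.62 (SE 0.17, adjusted p = 9.88e-06) log2 units from CD49f-neg to CD49f-high and by 2.14 (SE 0.17, adjusted p = 6.55e-05) from CD49f-low to CD49f-high. Zfhx3, a zinc finger homeobox factor, had means of 0.837 ± 0.236, 2.33 ± 0.259 and 8.58 ± 2.57 FPKM over the negative, low and high gates. It rose by 0.87 (SE 0.19, adjusted p = 0.0177) log2 units at the first step of the gates and by 1.49 (adjusted p = 0.000791) at the second. Tshz2, a teashirt zinc finger homeobox factor, had means of 1.45 ± 0.380, 2.24 ± 0.918 and 5.73 ± 0.539 FPKM over the negative, low and high gates and rose by 1.46 (SE 0.22, adjusted p = 0.00105) from CD49f-neg to CD49f-high. Ldb2, a cofactor of LIM homeobox proteins, had means of 2.12 ± 0.804, 2.54 ± 0.762 and 7.09 ± 2.03 FPKM over the negative, low and high gates and rose by 1.37 (SE 0.25, adjusted p = 0.00374) in the same contrast. Cux1, a cut homeobox factor, had means of 2.77 ± 0.238, 5.73 ± 0.565 and 4.24 ± 0.619 FPKM over the negative, low and high gates and rose by 0.83 (SE 0.13, adjusted p = 0.00217) from CD49f-neg to CD49f-low. Pax3, the paired box factor of melanoblasts and muscle precursors, had means of 0.0278 ± 0.0273, 7.82 ± 1.21 and 2.15 ± 0.976 FPKM over the negative, low and high gates and an F test adjusted p of 3.78e-05.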

How the data were processed

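RNA sequencing libraries of 9 sorted samples, 3 from each of 3 CD49f gates, were compared. The authors deposited 1 table of FPKM values, and FastQC, TopHat2 and StringTie were used on GRCm38, per the submitters' processing notes, with versions, filters and strand not given in the sources used here. Per the file headers, a row gives an identifier, gene symbols and coordinates, and FPKM were used as deposited, with no further scaling. The gate in each title gave a library its group. FPKM divides by transcript length and library size, so a few abundant rows can shift all others between gates.

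Homeobox genes were found by symbol, and the members, the cofactor list and the marker lists were chosen with earlier results of these data known. Values were compared as log2(FPKM + 1) in limma 3.58.1 (R 4.3.3) over all 9 libraries, with an empirical Bayes trend and 6 residual degrees of freedom. Rows needed at least 1 FPKM in at least 3 libraries, which left 20523. The p-values were adjusted by Benjamini-Hochberg over these, and a call was an adjusted p under 0.05. The method was also run on simulated data with independent noise in each library and shifts in CD49f-low alone. That run held no pairing of libraries and does not show that the calls here are right. Values in each library are given for 17 of the 20 members called in at least 1 contrast and for the most abundant member of a family. Of the cofactor list, up to 8 called genes with the smallest adjusted p of the F test are described. Eya1, Eya2 and Hopx have values in each library, and the others have gate means. The results of some homeobox genes are not reported here by name, and counts over the genes include them. Eya4 and the members under the filter given in each library were named after their values were seen.

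Libraries with the same number in their titles deviated together from the gate means (r = 0.252 to 0.520), and those with different numbers did not (-0.453 to 0.118). The numbers may therefore pair the samples, a pairing read from the values and not given by the labels. Deviations from a gate mean cancel within the gate, so positive values for the same number force lower ones for different numbers. The latter range is therefore no separate evidence of pairing. The main fit had no block, so its calls do not use this possible pairing. The fit with the replicate block is given where it changed a call. Further settings tried were no filter or one of 5 FPKM in 3 libraries, a pseudocount of 0.1, scaling by median of ratios or by quantiles, no mean-variance trend, fits on 6 libraries, a call that also needs a fold of 2, and leaving each library out in turn. Leaving out the 3 libraries numbered 1 was chosen after seeing the data. Depth was estimated from the spacing of low FPKM in single-exon genes of GENCODE M21. Python 3.11.15, numpy 2.4.6, pandas 2.3.3 and matplotlib 3.10.9 served for tables and figures. Reads were not used here.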

Additional observations from a re-analysis of the deposited data

How the results depend on the processing

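Among the 72 pairs of a tested homeobox gene and a contrast, 39 were called as deposited, and 31 of these stayed called in each of 18 refitted settings in which the gene was tested, 25 of them with a fold of at least 2; over the 18 settings 0 pairs changed direction, 50 gene settings lost a call and 19 gained one. The lost calls of the genes named are given with them above. With the stricter filter, which tests fewer genes, the counts fell to 2 higher in CD49f-low and 2 in CD49f-high, each against CD49f-neg, 1 higher and 8 lower in CD49f-high than in CD49f-low, 11 by the F test and 9 of the cofactor list (against 15). With no filter, 1 gene was lower in CD49f-low than in CD49f-neg (0.687% of all rows) and 4 were higher in CD49f-high than in CD49f-low (1.76%). With quantile normalization these counts were 4 and 4 (4.89% and 7.68% of all rows), and the cause was not tested. A fold of at least 2 left 0 genes lower in CD49f-low and 7 lower in CD49f-high than in CD49f-neg. Without the 3 libraries numbered 1, CD49f-high had 2 genes above CD49f-neg. For the stricter filter, the fold of 2 and the libraries left out, shares of all rows are not given, so those counts describe the genes alone. Leaving out 1 library gave 4 to 6 genes higher and 0 to 2 lower in CD49f-low than in CD49f-neg, 2 to 4 higher and 10 to 12 lower in CD49f-high than in CD49f-neg, 2 higher and 9 to 13 lower in CD49f-high than in CD49f-low, 15 to 19 by the F test and 12 to 16 of the cofactor list. Barx2 was not tested when a CD49f-high library was left out, nor Alx1 and Msx2 when a CD49f-low library was, nor any of these 3 without the libraries numbered 1, since each passes the filter through 1 gate; the counts fell in part for this reason.

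With the replicate block, 8 homeobox genes were higher and 4 lower in CD49f-low than in CD49f-neg, 5 higher and 11 lower in CD49f-high than in CD49f-neg, and 2 higher and 13 lower in CD49f-high than in CD49f-low. The F test then called 20 (43.8% of all rows), and the shares for the contrasts are given above. The cofactor list held 18 called genes, a count with no share of all rows given. Besides the changes given beside Pbx2, Pbx3, Irx1, Msx1 and Six5, the block changed no other call of a homeobox gene named here. At these depths a gene under 0.1 FPKM rests on few fragments, and its difference was not detectable.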
